A study of Mus musculus with 4 samples.

Results

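The small leucine-rich proteoglycans are secreted matrix proteins, and 6 of them are described here: decorin (Dcn), biglycan (Bgn), fibromodulin (Fmod), lumican (Lum), osteomodulin (Omd) and osteoglycin (Ogn). They were found by matching the accession or the description of each array probe to these gene symbols. All 6 were present, with 1 probe and 1 spot per array each, among 16463 transcript probes. Of these 6, 4 (Dcn, Bgn, Fmod and Ogn) were bright enough to be tested, among 14610 tested probes. Lum and Omd failed the background criterion in both channels of every array.

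The cells were mouse embryonic fibroblasts (MEFs), profiled on 4 two-colour arrays of long oligonucleotides in which Dlx3-transfected cells (Cy5) were set against a control (Cy3) on the same slide. In the stable group, cells stably transfected with a plasmid expressing Dlx3 were compared with cells that received an empty plasmid. In the transient group, Dlx3-expressing cells transfected for 24 h were compared with control MEFs, and the labels do not say whether these controls received a plasmid. Each group had 2 arrays, of which the second is called a biological repeat, and the plasmid's promoter, the number of clones and the number of embryos are not given in the labels. Dlx3 is a homeobox transcription factor of skin, placenta and bone-forming tissue. As a check of the transfection, the Dlx3 probe gave log2 ratios (Dlx3 over control) of 0.06 and 0.23 on stable arrays 1 and 2. On transient arrays 1 and 2 it gave 0.14 and 0.56. It passed in neither group (limma adjusted p = 0.396 and 0.179, unadjusted p = 0.266 and 0.023). Its spot cleared the local background on all 4 arrays. On 0 arrays did it clear the 95th percentile of control spots of randomized oligonucleotides, so this check rests on a dim spot. Most probes did not clear that bar either: 4483 of 16463 did so in either channel on at least 2 arrays.

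Small leucine-rich proteoglycans consist of a protein core of leucine-rich repeats, most with attached chondroitin, dermatan or keratan sulphate chains. Fibroblasts, chondrocytes and osteoblasts deposit them along collagen fibrils, where they help set fibril diameter and spacing. Several also bind growth factors of the transforming growth factor beta (TGF-beta) family and so influence how much ligand reaches its receptors.

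Across the tested members, 3 genes passed the test in at least one comparison, each in a different way. Dcn rose 2.0-fold in the stable transfectants. Ogn rose 2.75-fold in the transient transfectants. Fmod fell by 0.43 on the log2 scale in the stable transfectants, a call that several processing choices ended. In the stable group 2 of the 4 tested members were called at a limma adjusted p under 0.05, against 22.7% of all tested probes, so calls were common in this group (11.6% higher and 11.2% lower). Transient transfection gave 1 call among the 4, against 0.144% of all tested probes (0.0958% higher). That background comprised 14 higher and 7 lower probes, and it shifted to 142 higher and 503 lower when arrays were centred on the median in place of loess.

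**Figure D1:**
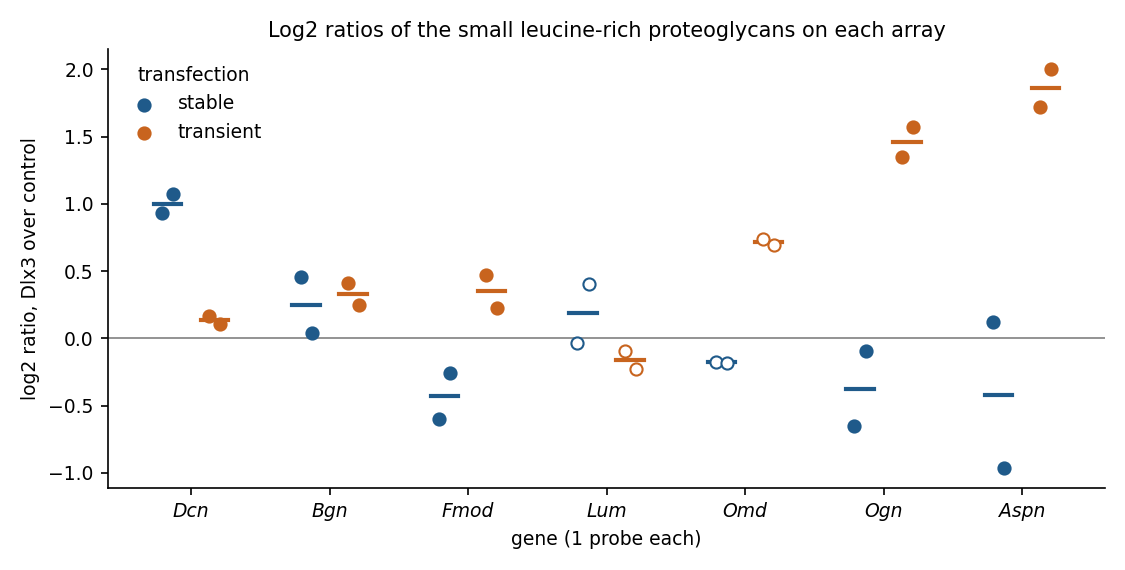
Log2 ratios of Dlx3 over control on each array (points) and their group means (bars) for the 6 genes and for Aspn, a neighbour of Ogn and Omd on the chromosome. Blue points are the 2 stable arrays and orange points the 2 transient arrays, and open points (Lum and Omd) are probes not above background, for which no fold is given. Dcn lies near 1.0 on the stable arrays and near 0.1 on the transient arrays, while Ogn and Aspn lie above 1 on the transient arrays and near or below 0 on the stable arrays.

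Dcn encodes decorin, a dermatan or chondroitin sulphate proteoglycan that binds collagen I fibrils and can sequester TGF-beta. Its log2 ratios were 0.93 and 1.07 in the stable pair of arrays, and 0.16 and 0.11 in the transient pair. Both stable ratios lay above both transient ratios, as they did for 28.4% of all tested probes. The stable mean of 1.00 ± 0.10 (SD, n = 2) passed the test (limma adjusted p = 0.00428) and ranked 70 from the highest among 14610 probes. The transient mean of 0.14 ± 0.04 (n = 2) did not pass (adjusted p = 0.387). The difference between the groups was 0.87 with a standard error of 0.11 and also did not pass (adjusted p = 0.0594), so the response is not shown to differ between them.

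Behind the stable ratio of Dcn, the background-subtracted intensity was 1678 in the Dlx3 channel against 861 in the control channel on the first array, and 2476 against 1157 on the second. On the first transient array the channels read 482 against 421, and the second gave the log2 ratio of 0.11 stated above. Both channels cleared the local background on all 4 arrays. Control spots of randomized oligonucleotides, which have no target, set a stricter bar at their 95th percentile on each array. On the second stable array it stood at 3187 (Dlx3) and 5117 (control) before background subtraction, where the median transcript spot read 802 and 855. Of 16463 transcript probes, 4483 cleared this bar in either channel on at least 2 arrays. Dcn cleared it in 1 channel alone, the Dlx3 channel of the first stable array. Dcn was therefore not tested under the stricter filter against those oligonucleotides. Under every other alternative that was run, its stable value stayed between 0.83 and 1.07 with an adjusted p of 0.00157 to 0.0169. In the stable group, the group means of the 192 randomized oligonucleotides reached 0.853 (log2). Those of the 817 blank spots ran from -1.2 to 1.07, a range that holds the stable mean of Dcn. Their 5th to 95th percentiles were -0.335 to 0.371, and those of the randomized oligonucleotides -0.478 to 0.24. The mean of Dcn lay outside both of these narrower ranges.

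Bgn encodes biglycan, the closest relative of decorin, which also binds collagen and can act as a ligand of Toll-like receptors once released from the matrix. Its log2 ratios were 0.46 and 0.04 in the stable pair of arrays, and 0.41 and 0.25 in the transient pair. Each of its 4 ratios was above 0, as for 19.7% of tested probes, and the groups overlapped. Neither the stable mean (0.25 ± 0.30, n = 2, limma adjusted p = 0.158) nor the transient mean (0.33 ± 0.11, adjusted p = 0.191) passed. The groups differed by -0.08 with a standard error of 0.16 (adjusted p = 0.807). Over all 4 arrays the mean of 0.29 lay at the edge of the threshold (adjusted p = 0.0502). That mean was 0.31 with scaling between arrays (limma adjusted p = 0.0306). It was 0.16 with print-tip loess, 0.13 with median centring and 0.15 with the authors' values (adjusted p = 0.231, 0.308 and 0.272). In the authors' values the second stable array read -0.14. With the second stable array left out, the stable value was 0.46, and without the first it was 0.04. The transient mean fitted on its own arrays had an adjusted p of 0.0496.

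The Bgn spot was bright on every array, with the Dlx3 channel at 9118 to 25617 and the control channel at 8195 to 21983 after background subtraction. It cleared the randomized-oligonucleotide bar in both channels of all 4 arrays, with 0% of pixels saturated. Dcn and Bgn are thus read from spots of unlike quality, and the arrays do not allow their levels to be ranked against each other.

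**Figure D2:**
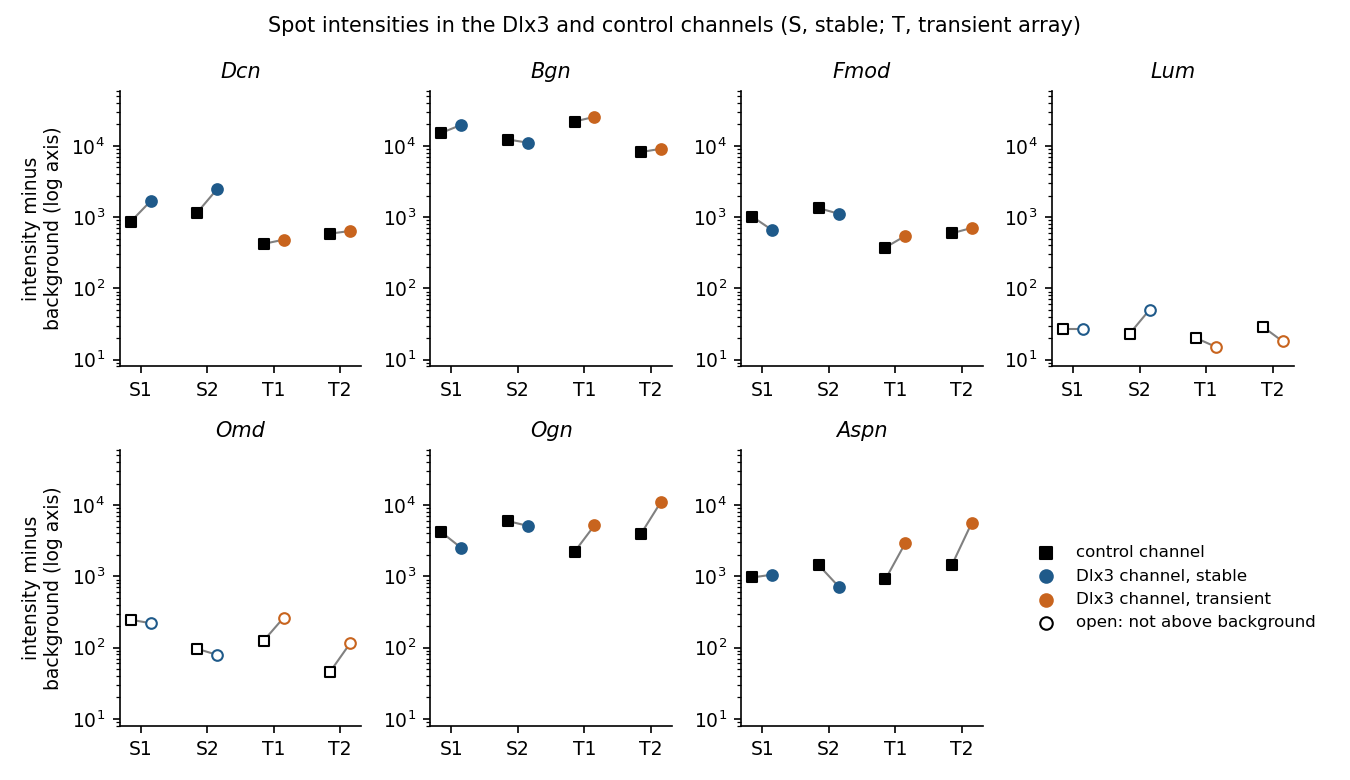
Background-subtracted spot intensity (log axis, arbitrary scanner units) of each gene in the control channel (black squares) and the Dlx3 channel (circles) on the stable (S1, S2) and transient (T1, T2) arrays. Open symbols were not above background. The lines joining the channels rise for Dcn on the stable arrays and for Ogn and Aspn on the transient arrays, while all Lum and Omd symbols are open.

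Fmod encodes fibromodulin, a keratan sulphate proteoglycan that binds collagen and takes part in the cross-linking of its fibrils. Its log2 ratios were -0.60 and -0.26 in the stable pair of arrays, and 0.47 and 0.23 in the transient pair. The groups did not overlap, with both stable ratios below both transient ratios, an order shared by 26.7% of tested probes. The stable arrays lay below 0 and the transient arrays above it, as for 7.09% of tested probes. The stable mean of -0.43 ± 0.24 (n = 2) passed the test (limma adjusted p = 0.0404), while the transient mean of 0.35 ± 0.17 did not (adjusted p = 0.166). The difference of -0.78 between the groups had a standard error of 0.16 and did not pass (adjusted p = 0.122).

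The Fmod spot read 656 against 1016 (Dlx3 against control) on the first stable array and 1114 against 1335 on the second. On the transient arrays it read 545 against 374 and 706 against 592. These intensities cleared the local background on all 4 arrays, but none cleared the randomized-oligonucleotide bar. The stable group means of the randomized oligonucleotides ran from -0.627 to 0.853 (log2), a range that holds the stable mean of Fmod. Their 5th to 95th percentiles, -0.478 to 0.24, also hold it. Background subtraction without normexp brought the stable adjusted p to 0.0731, and print-tip loess gave a smaller fall of -0.24 (adjusted p = 0.111). Without the first stable array the value was -0.26 (adjusted p = 0.136), and without either transient array the adjusted p was 0.0707.

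Lum encodes lumican, a keratan sulphate proteoglycan best known from the cornea. After background subtraction its spot held 15 to 50 units of Dlx3-channel signal and 20 to 29 units of control signal, and the scanner software marked the spot as not found on all 4 arrays. The spot was not well above background, and no fold is given for it.

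Omd encodes osteomodulin, a keratan sulphate proteoglycan of mineralized tissue. On the stable arrays its spot read 220 against 246 (Dlx3 against control) and 79 against 96. On the transient arrays it read 263 against 125 and 115 against 46. None of these was well above background. No fold is therefore given for Omd either.

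Ogn encodes osteoglycin, also called mimecan, a small proteoglycan first isolated from bone and expressed widely in connective tissue. Its log2 ratios were -0.65 and -0.09 in the stable pair of arrays, and 1.35 and 1.57 in the transient pair. Both transient arrays were high and both stable arrays lay below 0, with no overlap between the groups, an order shared by 26.7% of tested probes. The transient mean of 1.46 ± 0.16 (SD, n = 2) passed the test (limma adjusted p = 0.0418) and held rank 5 from the highest among 14610 probes. The stable mean of -0.37 ± 0.40 did not pass (adjusted p = 0.104). Ogn was the 1 member of 4 whose difference between the groups was called, at -1.83 with a standard error of 0.20 (adjusted p = 0.0417), against 0.24% of all tested probes called in that contrast (0.103% lower). The controls of the groups also differ, being empty-plasmid cells in one and control MEFs in the other, so the difference cannot be assigned to the Dlx3 channel alone.

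On the transient arrays the Ogn spot read 5206 against 2211 (Dlx3 against control) and 11126 against 3968. On the stable arrays it read 2498 against 4161 and 5114 against 5972. All of these intensities cleared the randomized-oligonucleotide bar, and no pixel was saturated. The group means of the 192 randomized oligonucleotides ranged from -1.15 to 0.835 (log2) in the transient group, and those of the 817 blank spots reached 1.53. The 95th percentiles of these means were 0.218 (randomized) and 0.693 (blank). The transient value of Ogn stayed between 1.30 and 1.76 under all alternatives, but its adjusted p rose to 0.1 with background subtraction without normexp. It was 0.232 and 0.21 without the first and the second transient array, and 0.00795 when the transient arrays were fitted alone. The call for the difference was lost in the same way, with adjusted p of 0.118 after plain subtraction and of 0.191 and 0.183 without the first and the second transient array.

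In the RefSeq annotation of the mouse genome (GRCm38.p6), Ogn and Omd lie next to each other on chromosome 13, in the order Ecm2, Aspn, Omd and Ogn. Aspn encodes asporin, a relative of decorin with an aspartate-rich stretch that binds collagen and TGF-beta. Its log2 ratios were 0.12 and -0.96 in the stable pair of arrays, and 1.72 and 2.0 in the transient pair. Both transient arrays were high, and the transient mean of 1.86 ± 0.20 (SD, n = 2, 3.63-fold) held rank 2 from the highest. It missed the threshold in the fit used here (limma adjusted p = 0.0627). It passed when the transient arrays were fitted alone (0.00795) and with the authors' values (0.0466). It also passed with median centring (0.022), scaling between arrays (0.00714) and among probes above the randomized oligonucleotides (0.0429). It did not pass with background subtraction without normexp (0.104), offset 10 (0.0867), print-tip loess (0.102) or no filter on dim probes (0.0802). Nor did it pass with spots marked not found left out (0.051) or with robust eBayes (0.0641). Its stable mean of -0.42 ± 0.77 did not pass (adjusted p = 0.232), and the stable arrays differed in sign. The spot read 2930 against 904 and 5652 against 1438 on the transient arrays. Its Dlx3 channel cleared the randomized-oligonucleotide bar on the transient arrays alone, and its control channel on none. Ecm2 was not above background, so of the 4 neighbours Ogn and Aspn are the measured ones.

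The promoter sequences of these neighbours are shown because Ogn and Aspn gave the high transient ratios and Omd lies between them. Each is the RefSeq window (GRCm38.p6) from 250 bases before to 50 bases after the annotated start, written 5′ to 3′ on the strand of the gene. Capitals mark TAATT on either strand, the core shared by many homeodomain binding sites.
Ogn, chr13:49607765-49608064, plus strand: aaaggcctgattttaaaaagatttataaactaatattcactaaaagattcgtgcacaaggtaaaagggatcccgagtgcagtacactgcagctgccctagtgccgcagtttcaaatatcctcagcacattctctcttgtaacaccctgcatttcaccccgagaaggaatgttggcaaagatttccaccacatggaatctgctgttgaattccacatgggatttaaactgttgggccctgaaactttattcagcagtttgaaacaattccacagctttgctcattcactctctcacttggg
Omd, chr13:49582212-49582511, plus strand: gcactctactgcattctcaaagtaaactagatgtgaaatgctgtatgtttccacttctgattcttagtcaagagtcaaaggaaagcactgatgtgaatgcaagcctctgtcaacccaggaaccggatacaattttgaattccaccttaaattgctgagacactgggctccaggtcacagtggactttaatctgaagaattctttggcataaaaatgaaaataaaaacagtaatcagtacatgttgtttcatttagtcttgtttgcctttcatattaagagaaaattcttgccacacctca
Aspn, chr13:49544193-49544492, plus strand: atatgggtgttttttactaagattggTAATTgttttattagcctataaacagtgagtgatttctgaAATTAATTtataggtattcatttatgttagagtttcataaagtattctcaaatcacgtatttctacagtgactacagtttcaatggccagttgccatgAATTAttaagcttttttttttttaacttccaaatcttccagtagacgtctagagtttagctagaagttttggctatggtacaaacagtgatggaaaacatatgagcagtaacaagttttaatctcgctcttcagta
TAATT was searched on both strands with overlapping matches counted. It occurred 0 times in the windows of Ogn and Omd and 4 times in that of Aspn, where a pair of the matches overlap. The windows of Bgn and Fmod also held 0. Of all 32851 RefSeq promoter windows of this length, 27% held at least 1 match, and of 10059 windows of tested genes 18.7% did. A match is a stretch of letters and is not evidence of binding, and windows were found for 4 of the 6 members, with Dcn and Lum not among them.

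**Figure D3:**
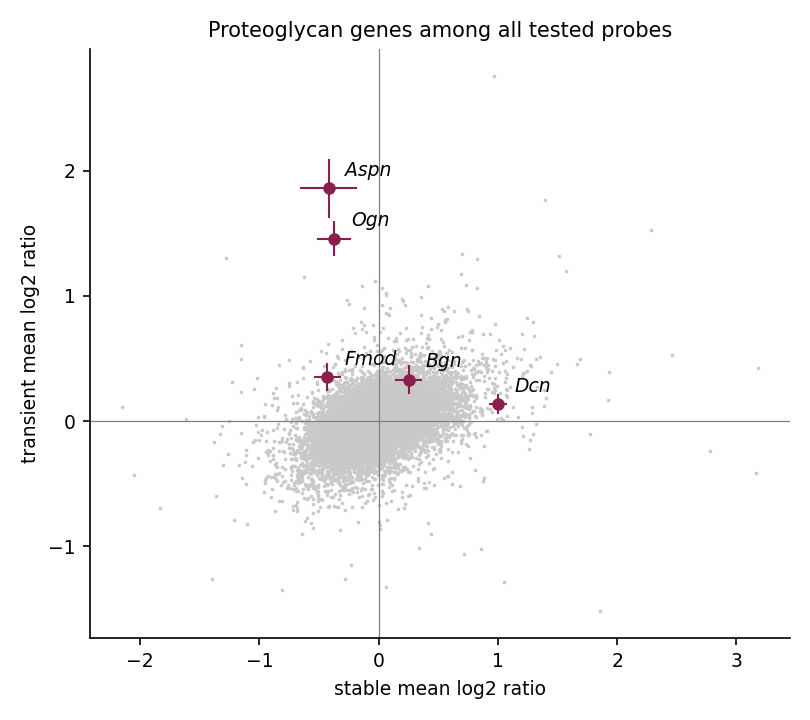
Mean log2 ratio (Dlx3 over control) in the stable group (horizontal) against the transient group (vertical) for the 14610 tested probes (grey) and 5 proteoglycan genes (dark red, bars are standard errors from the fit). Ogn and Aspn stand near the top edge at 1.46 and 1.86, Dcn stands to the right at 1.00, and Fmod and Bgn lie within the grey cloud.

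Considered together, Ogn and Fmod were below 0 on both stable and above 0 on both transient arrays, a pattern seen in 7.09% of tested probes. The stable and transient ratios did not overlap for 3 of the 4 tested members (Dcn, Fmod and Ogn), against 55.2% of all tested probes, so non-overlap itself was common. Over all 4 arrays, Dcn (0.57, limma adjusted p = 0.00533) and Ogn (0.54, adjusted p = 0.0175) were called higher, against 22.3% of probes called in either direction and 11% called higher. For Ogn this mean joins values of opposite sign. Over the 4 tested members the median log2 ratio was -0.06 in the stable group and 0.34 in the transient group, against 0.0065 and 0.0012 over all tested probes.

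Of 12 other family members, 6 were on the array by name and 5 were tested (Aspn, Chad, Epyc, Kera and Optc). None of the 5 was called in either group by limma, although unadjusted p was under 0.05 for Epyc and Chad in the stable group and for Aspn and Epyc in the transient group. Of all 14610 tested probes, 5842 in the stable and 2957 in the transient group had an unadjusted p under 0.05. Epyc encodes epiphycan, a cartilage proteoglycan, and read 0.18 and 0.19 in the stable pair and 0.23 and 0.30 in the transient pair. Kera, the corneal keratocan gene, read -0.18 and -0.18 in the stable pair and 0.07 and -0.14 in the transient pair. Kera and Epyc follow Dcn and Lum on chromosome 10, and neither was called. Optc, encoding opticin of the eye, read -0.14 and 0.46 in the stable pair and -0.22 and -0.27 in the transient pair. Chad, encoding the cartilage protein chondroadherin, read 0.28 and 0.30 in the stable pair and -0.13 and 0.22 in the transient pair.

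The probes most alike in pattern were those with the smallest root mean square difference of the 4 log2 ratios, among 10706 named probes. For Dcn these were Syngr1 (0.09), Rgcc (0.09) and Klhl5 (0.10). For Fmod they were Timp2 (0.06), an inhibitor of matrix metalloproteinases, Ttyh2 (0.10) and Bpifa3 (0.12). No probe lay as close to Ogn, for which the nearest were Camk4 (0.41), Sfrp1 (0.46), a secreted Wnt antagonist, and Apod (0.49). Timp2, whose spot cleared the randomized-oligonucleotide bar on at least 2 arrays, read -0.53 and -0.20 in the stable pair and 0.40 and 0.25 in the transient pair.

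The larger proteoglycans changed in both directions in stable transfectants, where 5 of 20 tested genes rose and 3 fell, with a median of 0.10. Over all tested probes 11.6% rose and 11.2% fell in this group, 22.7% in all. Sdc2, the cell-surface heparan sulphate proteoglycan syndecan 2, rose by 1.06 ± 0.13 (log2, SD, n = 2, limma adjusted p = 0.00428), and a second probe read 0.51 (adjusted p = 0.0165). Tgfbr3, the TGF-beta co-receptor betaglycan, rose by 0.88 ± 0.37 (adjusted p = 0.012). Cspg4, a transmembrane chondroitin sulphate proteoglycan, was lower at -1.15 ± 0.49, and Sdc3 was lower at -1.03 ± 0.26 (adjusted p = 0.0112 and 0.007). Sdc3 cleared the randomized-oligonucleotide bar on 0 arrays, and Cspg4 in the control channel of 1 array. In the transient group limma called 0 of 20 (2 at an unadjusted p under 0.05), with Cspg4 the farthest from 0 at 0.61 (adjusted p = 0.127). Among all 14610 tested probes, 0.144% were called in that group and 2957 had an unadjusted p under 0.05.

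Among enzymes that build the sulphated chains, 3 of 22 tested genes rose and 3 fell in the stable group (median 0.01), a share of 27.3% called, near the 22.7% over all probes. Chst11, a chondroitin 4-O-sulphotransferase, read 0.71 ± 0.25 (limma adjusted p = 0.0136) on 1 probe and -0.07 on its other probe, so its probes disagree. Ndst1, an enzyme of heparan sulphate synthesis, read 0.45 ± 0.16 (adjusted p = 0.0197) and 0.23 on its other probe. Chst7 was lower at -0.95 ± 0.12 and B3galt6, a linkage-region enzyme, at -0.39 ± 0.26 (adjusted p = 0.00504 and 0.0478), and both cleared the randomized-oligonucleotide bar on 0 arrays. Transient transfection gave 0 limma calls of 22, against 0.144% of all tested probes. At an unadjusted p under 0.05 were 5 of 22, against 2957 of 14610. Chst7 stood farthest from 0 at -0.49 (adjusted p = 0.0709).

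Of 21 tested collagens and fibril partners, 3 rose and 3 fell in the stable group (median 0.02), a share of 28.6% called, near the 22.7% over all probes. Col6a1, a chain of the collagen VI microfibrils that bind decorin and biglycan, rose by 0.78 ± 0.34 (limma adjusted p = 0.0138). Col12a1, a fibril-associated collagen, was lower at -0.75 ± 0.43 (adjusted p = 0.02). The matricellular genes Thbs1 and Ccn2 were lower at -1.02 ± 0.84 and -0.69 ± 0.36 (adjusted p = 0.0363 and 0.0187). Transient limma calls numbered 0 of 21, against 0.144% of all tested probes, and the list's median was 0.25. An unadjusted p under 0.05 was reached by 10 of 21, against 2957 of 14610 tested probes. Col11a1 was farthest from 0 there, at 0.71 ± 0.35 (adjusted p = 0.18).

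Growth factors and receptors bound by these proteoglycans were higher in 7 and lower in 0 of 16 tested genes in the stable group, with a median of 0.42, against 11.6% higher and 11.2% lower over all probes. Of these 16, 13 had an unadjusted p under 0.05 in limma, against 5842 of 14610 tested probes. Met (-0.41) and Kdr (-0.24) were among the 13 and lay below 0. Tgfbr2, the type II TGF-beta receptor, rose by 1.17 ± 0.72 (limma adjusted p = 0.0186) on the probe that could be tested, and its other probe was too dim. Lrp1, an endocytic receptor for decorin, rose by 0.76 ± 0.23, and Vegfa rose by 0.71 ± 0.38 (adjusted p = 0.0105 and 0.0186). Tgfb3 rose by 0.55 ± 0.22 (adjusted p = 0.017), on a spot that cleared the randomized-oligonucleotide bar on 1 array per channel. Proteinases and their partners were higher in 5 and lower in 0 of 13 (median 0.26), against the same shares over all probes. An unadjusted p under 0.05 was reached by 7 of the 13. Among these 7, Mmp9 (-0.33) and the inhibitor Timp2 (-0.53 and -0.20 on the stable arrays) lay below 0 and were not called. The metalloproteinases Mmp2 and Mmp14 rose by 1.40 ± 1.13 and 1.28 ± 0.57 (adjusted p = 0.0324 and 0.0115). The stable arrays differed widely for Mmp2, at 0.60 and 2.20. Pcolce, an enhancer of procollagen processing, rose by 0.59 ± 0.33 and Adamts1 by 0.55 ± 0.42 (adjusted p = 0.0216 and 0.0386). Transient limma calls were 0 of 16 and 0 of 13, against 0.144% of all tested probes. In each list 4 genes had an unadjusted p under 0.05, against 2957 of 14610 tested probes. Bmp4 stood at 0.66 ± 0.07 (adjusted p = 0.0627) and Mmp14 at 0.44 ± 0.04 (adjusted p = 0.238).

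**Figure D4:**
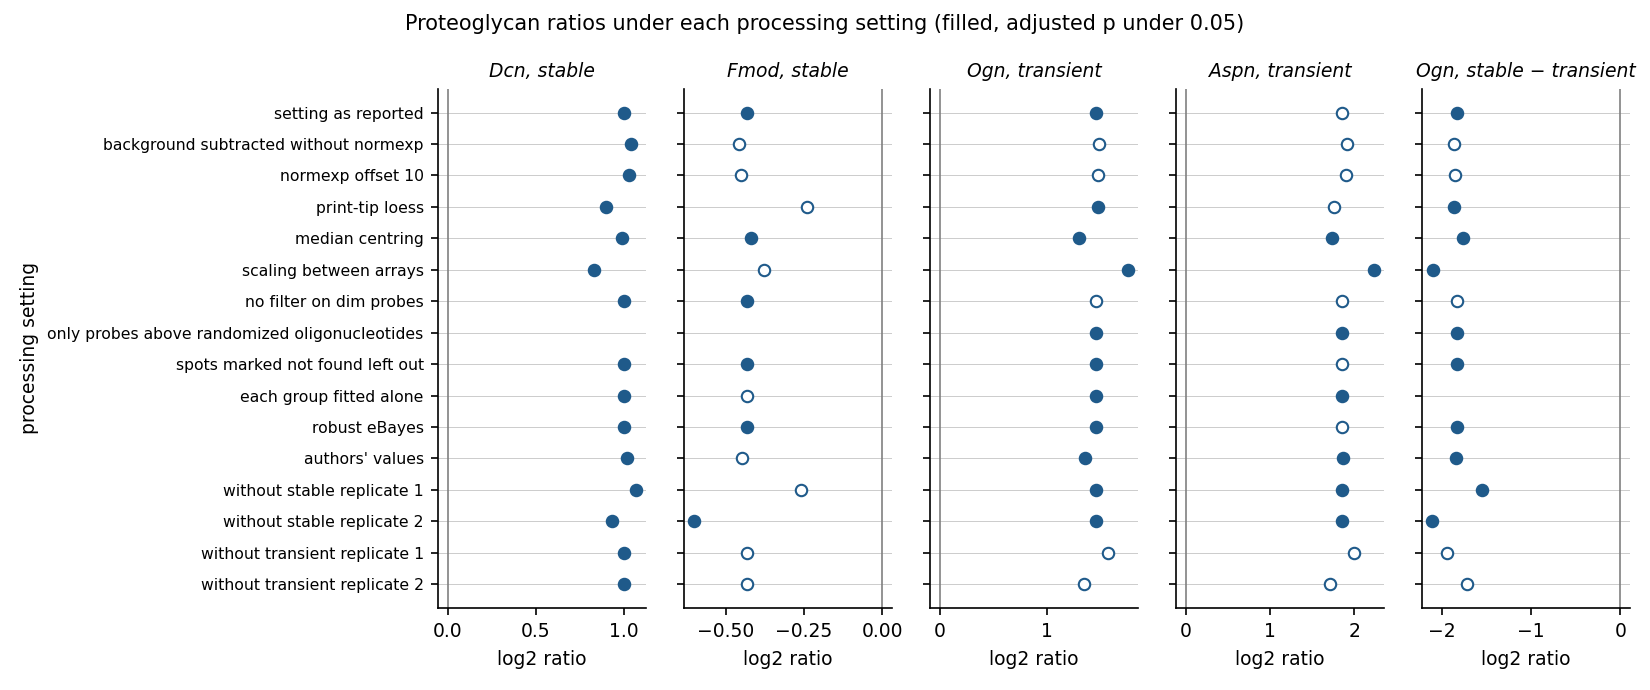
Log2 ratio (Dlx3 over control) of the Dcn, Fmod, Ogn and Aspn values under each processing setting, with filled points where the limma adjusted p was under 0.05. The stable Dcn value is filled wherever it was tested, the stable Fmod value is open under most settings, and the transient Ogn and Aspn values keep their size while their calls come and go.

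Cell type markers were read on the same arrays. In a bulk sample, fewer cells of a type and less RNA per cell cannot be told apart. Of 9 fibroblast markers on the array, 5 cleared the background on every array in both channels, and the Col3a1 probe was not above background on any. In the stable group 2 of 8 tested fibroblast markers rose, Pdgfra (0.98) and Fbln1 (1.03), and 1 fell, S100a4 (-0.63). Of all tested probes 11.6% rose and 11.2% fell in the stable group, the shares to set beside each marker list. The summed fibroblast markers stood at 177864 to 183001 (Dlx3) against 185282 to 200855 (control) there, and at 173363 to 202069 against 149620 to 184360 in the transient group. Col1a1, Col1a2 and Vim make up most of these sums and had up to 98, 83 and 91% of pixels saturated, which compresses any difference between channels. Of 6 chondrocyte markers, Acan (0.37) and Comp (0.61) rose in the stable group. Col9a1 (0.11), Col11a2 (-0.01), Col2a1 (-0.01) and Matn1 (-0.19) were not called there. The chondrocyte sums were 56037 to 68881 in the Dlx3 channel against 44273 to 58272 for the control. Comp, which makes up most of these sums, had 68% of pixels saturated on the second stable array, so its ratio there is not exact. Of 4 osteoblast markers Alpl (0.77) rose in the stable group, with sums of 2706 to 3654 and 1920 to 2329. Dmp1 (0.16) and Ibsp (-0.31) were not called, and Sp7 was not tested. Of 6 muscle markers, Acta2 (-1.62), Tagln (-1.16) and Cnn1 (-0.42) fell in the stable group. Myh11 (0.18), Myod1 (-0.09) and Myog (-0.04) were not called there. The muscle sums in that group were 9546 to 11568 in the Dlx3 and 23560 to 25932 in the control channel. Hbb-y (0.83) was the 1 blood or macrophage marker called of 5, and Krt5 (0.46) the 1 epithelial marker called of 5. The Pdgfra, Acan, Hbb-y and Krt5 spots cleared the randomized-oligonucleotide bar on 0 arrays, and Alpl in the Dlx3 channel of 1 array. The summed blood and macrophage markers read 5132 to 5707 against 5524 to 6061 (Dlx3 against control), and the epithelial markers 3102 to 4442 against 3017 to 3718. No endothelial, tendon or adipocyte marker was called by limma, although Kdr and Lpl had an unadjusted p under 0.05, and Cdh5, Adipoq and Cfd were too dim to test. For the transient group limma called 0 of 38 tested markers, against 0.144% of all tested probes. An unadjusted p under 0.05 was reached by 13 of 38, against 2957 of 14610 tested probes. Of these 13, 7 were among the 8 tested fibroblast markers, with S100a4 below 0 and the others above it. The transient muscle sums were 31009 to 38589 in the Dlx3 and 34703 to 43255 in the control channel. The part of these cell type markers in the Dcn, Fmod and Ogn results was not tested.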

How the data were processed

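Per the file headers, the 4 deposited scanner tables hold mean and median foreground and local background intensity at 635 nm (Cy5) and 532 nm (Cy3) for 17664 spots, read with GenePix Pro 5.0.0.49 on 1 scanner in 1 day. Saturated pixels are deposited as a percent for every spot. Detector gains were 610 to 680 at 635 nm and 570 to 590 at 532 nm. The authors' deposited value table holds a signed score per spot whose normalization is not given in the sources used here. It matched the scanner values as minus the ratio of control over Dlx3 (r of 0.923 to 0.975 across spots), with column medians of -1.001, -1.007, -1.002 and -1.002. Its scale and sign were taken from that match, and its centring is unknown.

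Background was corrected with normexp (offset 50), and ratios were normalized within arrays by global loess, giving the 1009 control spots weight 0, in limma 3.58.1 and R 4.3.3. A probe was tested when at least 2 arrays showed, in either channel, a foreground more than 2 background SDs above background. On single arrays 77.35 to 87.20% of transcript spots were above background, and the rule over arrays kept 14610 of 16463 probes. The model (lmFit, eBayes) had one mean per group over the 4 arrays (2 residual and 4.2 prior degrees of freedom), p-values were two-sided and Benjamini-Hochberg adjusted over all tested probes, and a call is an adjusted p under 0.05. With 2 arrays a group, their number limits the precision. All arrays carry the dyes in 1 orientation, so a dye effect of a probe stays in every ratio. Probes were named through RefSeq accessions (6678), clone names (5312) or descriptions (22), using the GRCm38.p6 gene table. Where a listed gene had several tested probes, the brightest represented it. Of these steps, the model fit alone was tested on simulated log2 ratios. The promoter search was a letter match.

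The members and lists were chosen with earlier results of these data known. The rule named all members and other family genes, up to 4 called genes per list and group with the largest ratios, or the largest uncalled one, and the 3 nearest probes of each called member. The alternatives covered background, normalization, filters, samples in the fit, eBayes, the authors' values and leaving out each array.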

Additional observations from a re-analysis of the deposited data

Results flagged for a closer look

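The response of Ogn differed between the transfection types by a test of the difference itself. Its log2 ratio was -0.37 ± 0.40 in the stable group and 1.46 ± 0.16 in the transient group (SD, n = 2 each), a stable minus transient difference of -1.83 (limma adjusted p = 0.0417). The range of the difference was -2.11 to -1.55 when each array was left out in turn. The call was lost without the first and without the second transient array (adjusted p = 0.191 and 0.183). It was also lost after background subtraction without normexp (0.118), with offset 10 (0.0725) and with no filter on dim probes (0.0548). The groups had different controls, and their part in the difference was not tested.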

How the results depend on the processing

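Dcn kept its stable call under every alternative in which it was tested. The count of called members in the stable group, 2 as reported, was 1 after background subtraction without normexp, offset 10, print-tip loess, scaling between arrays, fitting each group alone or the authors' values, and 0 among probes above the randomized oligonucleotides. It was 3 with median centring, where the stable Ogn value of -0.47 also passed (limma adjusted p = 0.0437). It also changed when each array was left out in turn (by array). The transient count of 1 became 0 after subtraction, offset 10 or no filter, 2 with groups fitted alone, and 0 to 2 by array. The count of 1 for the difference became 0 after subtraction, offset 10 or no filter, 2 with median centring, and 0 to 3 by array. The count of 2 over all arrays became 3 with scaling, spots marked not found left out, robust eBayes or no filter, which added Omd. It also changed with some arrays left out. Over all probes, the stable count of 3322 became 2071 with subtraction, 2132 with scaling, 1324 above the randomized oligonucleotides, 1229 with groups alone, and 1229 to 4349 by array. The transient count of 21 (14 higher, 7 lower) became 0 with subtraction in limma (3029 at an unadjusted p under 0.05), 645 with median centring (142 higher, 503 lower), 1400 with scaling (623 higher, 777 lower), 12 with no filter, 103 above the randomized oligonucleotides, 1296 alone, 223 with the authors' values, and 3 to 1296 by array. The count of 35 for the difference became 0 with subtraction (2494 unadjusted), 22 with offset 10, 88 with median centring, 12 above the randomized oligonucleotides, and 3 to 1365 by array. The count of 3258 over all arrays became 1901 with print-tip loess, 1467 above the randomized oligonucleotides, and 222 to 4972 by array. Some uncalled values changed sign. The 4-array mean of Fmod was -0.04 as reported, 0.13 with print-tip loess, 0.019 with scaling, and -0.13 to 0.045 by array. By array, the stable value of Aspn ran from -0.96 to 0.12 and the difference for Bgn from -0.29 to 0.13. Fewer probes or arrays enter the fits above the randomized oligonucleotides, alone or by array, and otherwise the cause was not tested. An array left out leaves a lone array assumed to vary like the other group. No paired analysis was possible because the labels give no replicate numbers shared between the groups. Spots near background limit Fmod and Dcn, and prevent any fold for Lum and Omd.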
